A study of Mus musculus with 4 samples.

Results

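The inflammasome and interleukin 1 genes are 10 genes of innate immunity: the sensors Nlrp3 and Nlrc4, the adaptor Pycard, the inflammatory caspases Casp1 and Casp4, the pore-forming protein Gsdmd, the cytokines Il1a, Il1b and Il18, and the receptor antagonist Il1rn. They were chosen by name and not by a measured value, though earlier results of these data were known. All 10 were located, out of 34328 genes in all (protein-coding genes and lncRNAs, on autosomes and chromosome X). DNA methylation was measured by whole-genome bisulfite sequencing, in which unmethylated cytosines are converted and read as T while methylated cytosines are still read as C. The DNA came from hippocampal microglia of mice at postpartum week 3, in 2 control libraries and 2 libraries of the group labelled FGR, the growth-restricted group of a series on intrauterine growth restriction. Mice of both groups carried Tmem119-tdTomato+/-, a red fluorescent reporter tied to Tmem119, a gene of microglia. The sources used here do not give how growth was restricted, the sex of the mice, or whether a library holds the cells of several mice. The comparison asks whether CpG methylation of these genes differed between FGR and control microglia.

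An inflammasome is a protein platform that assembles in macrophages and microglia when a sensor detects microbial products or cell damage. In the canonical form, NLRP3 or NLRC4 recruits caspase 1, through ASC in the case of NLRP3, and caspase 1 then matures the precursors of interleukin 1 beta and interleukin 18. Caspase 1, and in the non-canonical form caspase 4 (also called caspase 11 in mice), cleaves gasdermin D, whose fragment forms membrane pores that release the cytokines. Methylated CpGs in the promoter of a gene are commonly found where a promoter is silent, while most CpGs elsewhere in the mammalian genome are methylated.

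The sequences around the RefSeq starts show what was read. Each runs from 250 bp before to 50 bp after a start in GRCm38.p6, 5′ to 3′ on the strand of the gene, with each CpG in capitals. A start is the outermost one in RefSeq's table of starts, and further starts of a gene are numbered from it. The first 6 are starts where most reads were unmethylated, and the last 2 are the starts of Il1rn and Il1b where the few reads, from 1 library each, were mostly methylated.
Nlrp3 start 1, chr11:59541319-59541618, + strand: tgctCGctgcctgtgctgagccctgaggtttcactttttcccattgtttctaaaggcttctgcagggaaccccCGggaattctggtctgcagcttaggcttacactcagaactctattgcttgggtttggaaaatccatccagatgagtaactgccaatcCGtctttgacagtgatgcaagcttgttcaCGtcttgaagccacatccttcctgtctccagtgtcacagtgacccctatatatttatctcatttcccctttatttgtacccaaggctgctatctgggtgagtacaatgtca
Nlrp3 start 2, chr11:59542436-59542735, + strand: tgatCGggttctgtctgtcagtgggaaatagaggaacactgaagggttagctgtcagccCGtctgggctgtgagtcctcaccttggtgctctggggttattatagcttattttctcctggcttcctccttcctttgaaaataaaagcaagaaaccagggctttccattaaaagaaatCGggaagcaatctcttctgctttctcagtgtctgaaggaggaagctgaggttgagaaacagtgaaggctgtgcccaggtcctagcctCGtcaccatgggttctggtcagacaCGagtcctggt
Pycard start, chr7:127993818-127994117, - strand: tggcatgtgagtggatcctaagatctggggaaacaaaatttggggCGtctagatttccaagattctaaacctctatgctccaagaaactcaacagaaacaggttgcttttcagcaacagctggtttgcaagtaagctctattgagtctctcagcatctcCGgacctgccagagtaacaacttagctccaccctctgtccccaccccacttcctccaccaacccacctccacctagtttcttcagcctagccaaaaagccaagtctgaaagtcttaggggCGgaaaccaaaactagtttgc
Casp4 start 1, chr9:5308599-5308898, + strand: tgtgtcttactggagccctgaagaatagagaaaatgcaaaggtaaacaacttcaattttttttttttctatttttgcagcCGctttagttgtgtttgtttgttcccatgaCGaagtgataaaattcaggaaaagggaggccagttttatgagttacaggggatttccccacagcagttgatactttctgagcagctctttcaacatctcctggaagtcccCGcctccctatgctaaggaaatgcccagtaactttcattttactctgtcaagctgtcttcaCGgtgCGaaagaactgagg
Il1a start, chr2:129309923-129310222, - strand: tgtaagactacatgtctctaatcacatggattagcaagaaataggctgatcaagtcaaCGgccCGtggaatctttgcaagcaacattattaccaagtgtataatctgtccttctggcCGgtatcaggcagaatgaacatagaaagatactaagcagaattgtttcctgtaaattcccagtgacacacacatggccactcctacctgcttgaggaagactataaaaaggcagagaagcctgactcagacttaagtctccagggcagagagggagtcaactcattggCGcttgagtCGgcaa
Il1rn start 2, chr2:24345041-24345340, + strand: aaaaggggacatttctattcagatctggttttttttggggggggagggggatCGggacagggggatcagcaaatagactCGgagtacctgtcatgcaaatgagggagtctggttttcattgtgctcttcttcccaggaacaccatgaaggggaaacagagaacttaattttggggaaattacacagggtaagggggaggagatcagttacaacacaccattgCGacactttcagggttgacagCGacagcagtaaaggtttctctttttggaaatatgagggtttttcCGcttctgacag
Il1rn start 1, chr2:24336610-24336909, + strand: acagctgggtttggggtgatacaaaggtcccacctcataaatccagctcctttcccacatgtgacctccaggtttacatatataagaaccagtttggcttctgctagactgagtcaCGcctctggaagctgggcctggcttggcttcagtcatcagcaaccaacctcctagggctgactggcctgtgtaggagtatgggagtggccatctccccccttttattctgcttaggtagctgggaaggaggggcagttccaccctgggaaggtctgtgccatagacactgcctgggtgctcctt
Il1b start, chr2:129371090-129371389, - strand: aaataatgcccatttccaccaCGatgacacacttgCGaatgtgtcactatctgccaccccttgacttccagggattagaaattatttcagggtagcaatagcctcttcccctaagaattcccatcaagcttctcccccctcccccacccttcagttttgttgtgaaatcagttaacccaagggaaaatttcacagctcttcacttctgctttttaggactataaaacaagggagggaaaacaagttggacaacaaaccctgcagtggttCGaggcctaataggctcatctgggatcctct

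The 9 genes with a RefSeq start sequence have 38 distinct CpGs in these 300-bp stretches. The sequences printed hold between 1 and 5 CpGs each, where the median of all 32851 start sequences is 7. Of the 38 CpGs, 34 were listed by at least 1 library, with 508 reads in all. At 21 of these 34 no read was methylated, at 29 the level over the summed reads was under 20%, and at 3 it was over 50%. The 3 are the only CpG listed at the first start of Il1rn, with 7 reads from control 2 alone, and the 2 CpGs listed at the start of Il1b, with 7 reads each from FGR 2 alone. Only 1 of the 34 was listed in every library, the CpG 61 bp before the first start of Nlrp3, where 28 reads gave 3.57%. The start of Gsdmd is named only.

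Motifs were searched in the start sequences of the 9 genes on both strands, with N for any base. The NF-kappaB letters, GGG and CC with any 5 bases between them, stood in both Nlrp3 starts, in the starts of Casp1 and Casp4 and in every Il1rn start, and 50.8% of all start sequences hold them. The PU.1 letters GAGGAAG, found in 13.6% of all starts, stood in the second Nlrp3 start, in the Pycard start and in the Il1a start. The AP-1 letters TGANTCA, found in 7.81% of all starts, stood in the Il1a start and the first Il1rn start. No start of the members held the interferon response letters, GAAA repeated after any 2 bases, which 3.44% of all starts hold. Matches of different motifs did not overlap in any start of the members, while those of NF-kappaB in Casp4 partly overlap each other. A match is one of letters and says nothing of binding.

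The 4 libraries listed between 7615146 and 13578464 cytosines, with summed coverage between 49563150 and 91762720 reads, fewest in FGR 1 and most in FGR 2. No cytosine with fewer than 5 reads is listed, so the CpGs of a gene differ between libraries, and 1418485 autosomal CpGs were listed in all 4. The autosomal level was 76.0% and 76.4% in the controls and 74.6% and 75.6% in FGR. On the shared CpGs it was 76.7%, 76.9%, 76.4% and 76.4% in the same order. The labelled cell type was checked on the starts of marker genes. The starts of 4 of 8 microglial markers could be measured, with a median level of 2.06%. P2ry12, Cx3cr1 and Sall1 were at most 4% in every library that listed them, and control 2 listed no CpG at the start of Sall1. The start of Siglech went the other way, with 71.6% and 93.3% in the controls and 13.3% and 40% in FGR. The median was 88.2% for 2 of 4 oligodendrocyte markers, 84.0% for 3 of 4 lymphocyte markers, 69.5% for 3 of 4 astrocyte markers and 56.7% for 3 of 4 neuronal markers. Single genes stood apart here too, with neuronal Syt1 at 2.77% and astrocytic Aldh1l1 at 26.2% over the summed reads. Starts of 3 of 4 border macrophage markers had a median of 21.8%, with Mrc1 at 21.5%, Pf4 at 21.8% and Cd163 at 91.6%. Those of 4 of 4 monocyte and neutrophil markers had a median of 64.0%, from 40.6% to 91.1%. Whether the libraries of a group came from separate animals is not given, so the p-values measure the spread between these libraries, which may be technical. A lower level in a library can come from fewer methylated copies in every cell or from a changed mix of cells, and these cannot be told apart here.

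A window is the gene span with 5 kb on each side, and its level is the share of methylated reads over its CpGs. Over all 4 libraries the window of Il1a was lowest, at 55.9% ± 8.51 (SD, n = 4), and that of Nlrc4 highest, at 84.99% ± 1.51 (SD, n = 4). Between them stood Nlrp3 at 62.4%, Casp1 at 65.3%, Pycard at 68.1%, Il1rn at 73.1%, Il18 at 75.9%, Casp4 at 78.5%, Il1b at 80.3% and Gsdmd at 82.1%. The libraries of each gene overlapped those of the next gene in this order in every case, so neighbours do not differ beyond their spread. The median of all 33515 windows tested was 74.6%, with quartiles of 67.6% and 80.4%. Il1a stood at or above 7.44% of them and Nlrc4 at or above 90.01%.

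Along the genes the level fell from the usual high plateau into narrow valleys. Of 269 bins of 1000 bp, 233 held at least 3 CpGs and 20 reads over the 4 libraries. Of these 233 bins, 167 were above 70% and 23 were below 30%.

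**Figure D1:**
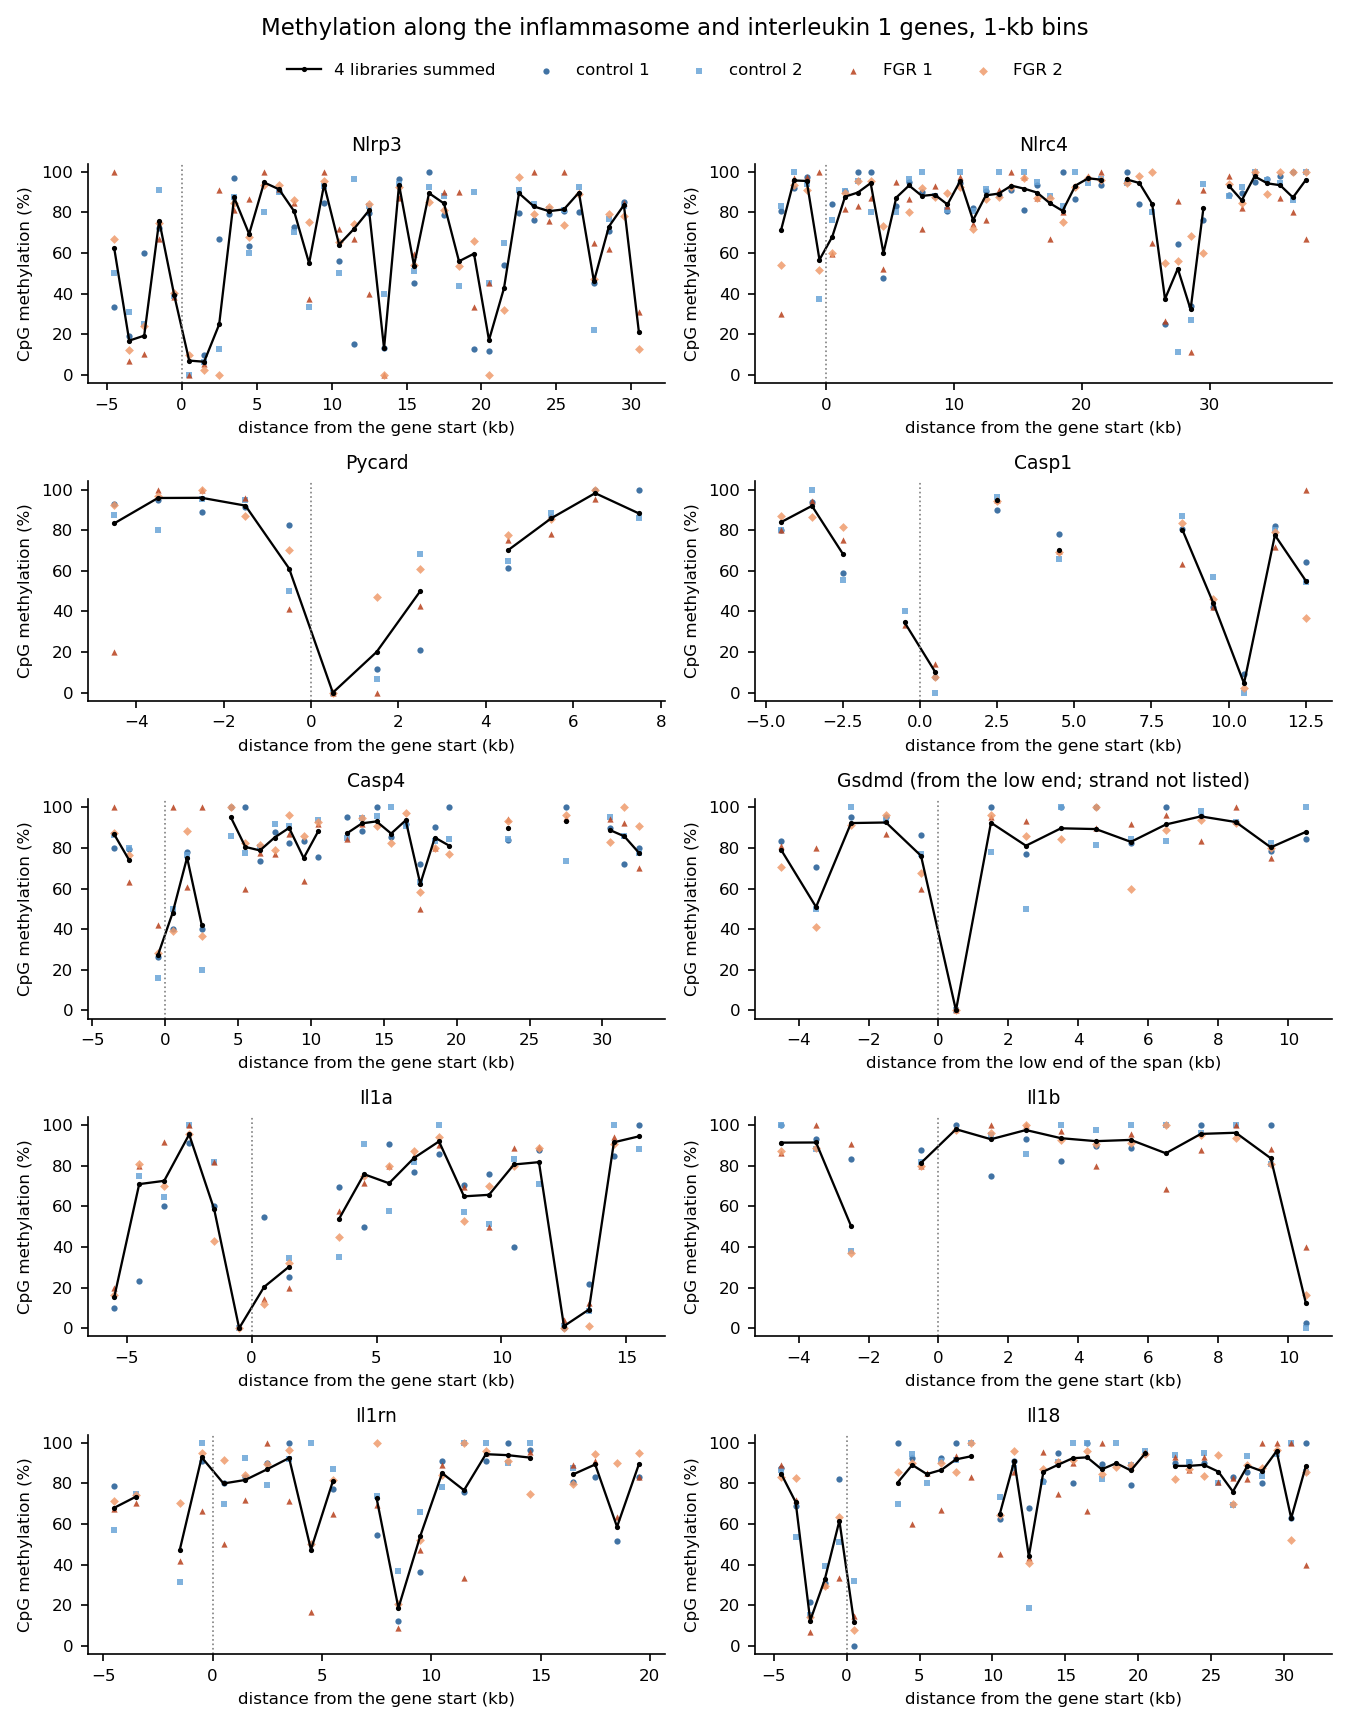
Methylation level (y axis, %) in 1-kb bins against the distance from the gene start in the direction of transcription (x axis, kb), for each of the 10 genes. The black line is the level over the summed reads of the 4 libraries and the symbols are the single libraries; for Gsdmd the distance runs from the low end of its span. The line falls to 0% just after the start of Pycard and after the low end of Gsdmd, stays at 98.0% just after the start of Il1b, and dips to 18.7% inside Il1rn.

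Nlrp3, the sensor of cell damage, lies on chromosome 11 (59541569 to 59566955, GRCm38.p6, plus strand). The 1000 bp after its start had 7.0% of 114 reads methylated and the next 1000 bp 6.46% of 263 reads (Wilson's 95% interval 4.07% to 10.1%). In that second bin the single libraries read 9.88% and 6.38% in the controls and 5.43% and 2.33% in FGR. A second valley lay before the start, with 16.9% at -4000 to -3001 bp from the start and 19.3% at -3000 to -2001 bp. Between the valleys, at -2000 to -1001 bp, the level was 75.9%. The window of Nlrp3 had 8 of 36 bins under 30%, a higher count than that of any other member. That of Il1a, a shorter window, had 5 of 21, a larger share.

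Nlrc4, the sensor of bacterial flagellin and secretion systems, lies on chromosome 17 (74426255 to 74459144, minus strand). No bin of its window was under 30% and 34 of 40 were above 70%. The 1000 bp after its start stood at 68.0% of 172 reads. Its lowest bin was far inside the gene, from 28000 to 28999 bp after the start, at 32.2% (26.2% to 38.9%). In that bin the controls read 34.0% and 26.8% and FGR 11.48% and 68.3%, so the spread within FGR was larger than the distance between the groups. The start sequence of Nlrc4 was listed only in control 2, at 9.09% of 11 reads, and FGR 2, at 27.8% of 18 reads.

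Pycard encodes ASC, the adaptor that joins sensors to caspase 1, and lies on chromosome 7 (127991373 to 127993867, minus strand). The 1000 bp after its start held no methylated read among 189 in all, with 15 and 23 reads in the controls and 86 and 65 in FGR, and a count of 0 in 189 allows a level of up to 1.59%. The next 1000 bp stood at 20% of 55 reads, and the bin at -2000 to -1001 bp from the start at 92.1%. In the short start sequence, control 1 listed 1 CpG at 66.7% of 6 reads, control 2 listed 3 CpGs at 10% of 20 reads, and FGR 1 listed 2 CpGs at 0% of 13 reads.

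Casp1, the protease of the canonical inflammasome, and Casp4, that of the non-canonical one, are neighbours on chromosome 9 in the same orientation (5298517 to 5307281 and 5308849 to 5336791, plus strand). Their windows overlap and share CpGs, so they are not independent. The 1000 bp after the start of Casp1 stood at 10% of 80 reads, with 7.69% and 0% in the controls and 14.0% and 7.69% in FGR. The lowest bin of the Casp1 window, 4.55% of 132 reads from 10000 to 10999 bp after its start, contains the start of Casp4. In the start sequence of Casp4 the level was 2.61% of 115 reads, with 5.88% and 0% in the controls and 0% in FGR 2, and FGR 1 listed no CpG there. From 1000 bp before to the start of Casp4 the level was 27.2% of 191 reads, its lowest bin.

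Gsdmd encodes the pore-forming substrate of both caspases and lies on chromosome 15 (75862144 to 75867408). In the 1000 bp from the low end of its span no read of 55 was methylated, which allows a level of up to 5.45%. These 55 reads came from control 2 (35 reads), FGR 1 (15 reads) and FGR 2 (5 reads), and control 1 listed no CpG there. The bins on either side were at 76.1% and 92.4%, and the region from 1500 bp outside to 500 bp inside the high end stood between 85.7% and 94.7% in the 4 libraries.

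The cytokine genes differed among themselves in this respect. Il1a, which encodes interleukin 1 alpha, an alarm signal active without cleavage by caspase 1, lies on chromosome 2 (129299609 to 129310186, minus strand). None of 32 reads in the 1000 bp before its start was methylated, which allows up to 9.38%, and the 1000 bp after it stood at 20.3% of 64 reads. The Il1a window also holds the starts of Ckap2l and the lncRNA Gm14023, 12760 and 12602 bp after the start of Il1a, and the bin with both stood at 1.0% of 299 reads. Reads from this bin differed in number between libraries, with 45, 186, 25 and 43 in the order control 1, control 2, FGR 1, FGR 2. Il1b, which encodes the main cytokine released through inflammasomes, lies on the same chromosome (129364569 to 129371164, minus strand) and had no valley at its start. The 1000 bp before its start stood at 81.4% of 59 reads and the 1000 bp after it at 98.0% of 49 reads. Of these 49 reads, 6 were from control 1 and 43 from FGR 2, and the other two libraries listed no CpG there. Of the bins of Il1b with 3 or more CpGs, the only one under 30% lay from 10000 to 10999 bp after the start, beyond the gene's end, at 12.5% of 120 reads. Il18, which encodes a cytokine that drives interferon gamma production, lies on chromosome 9 (50554700 to 50581841, plus strand). The 1000 bp after its start stood at 11.98% of 217 reads, and this bin also holds the start of Bco2, 438 bp from that of Il18. The bin at -3000 to -2001 bp from the start stood at 12.5% of 120 reads, with 21.4% and 15% in the controls and 6.67% and 14.3% in FGR.

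Il1rn, which encodes the antagonist that blocks the interleukin 1 receptor, lies on chromosome 2 (24336860 to 24351491, plus strand) and has 3 RefSeq starts. The 1000 bp before its first start stood at 92.9% of 56 reads and the 1000 bp after it at 80% of 70 reads. Its valley lay at the other two starts, 8431 and 8511 bp downstream. At the second start none of 65 reads was methylated, which allows up to 4.62%, and at the third the 4 CpGs of the start sequence, of which 3 are also in that of the second start, had no methylated read in 15 to 20 reads each. The bin that holds both stood at 18.7% of 171 reads, with 12.2% and 36.8% in the controls and 8.89% and 20.5% in FGR.

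In the comparison of FGR with control, none of the 10 windows was called by the quasi-binomial test, which asked for a Benjamini-Hochberg adjusted p under 0.05 over all windows and a difference of at least 10 percentage points. The share called among all 33515 windows was 0%. At an unadjusted p under 0.05 there was 1 member, Pycard, beside 6.44% of all windows, and limma on log2 ratios likewise called 0 with 1 member under 0.05. Both FGR libraries lay beyond both controls in 3 of the 10 windows, Nlrp3, Pycard and Il18, beside 36% of all windows. The mean was lower in FGR in 5 members and higher in 5, beside 62.9% of all windows that were lower. The median difference of the members was 0.41 points, beside -1.11 points over all windows.

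**Figure D2:**
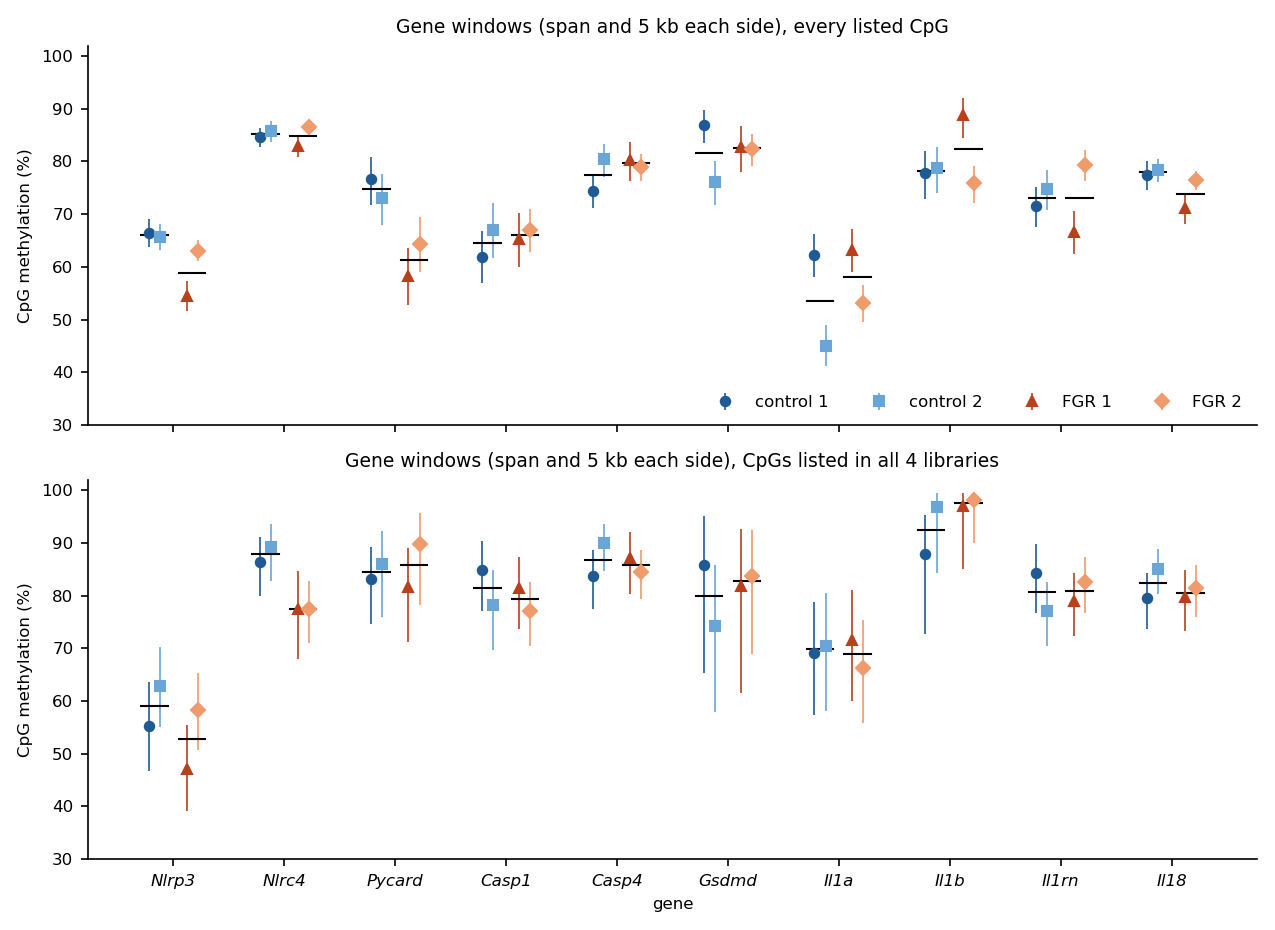
Methylation level of each gene window (y axis, %, not from 0) in each library, on every listed CpG (top) and on the CpGs listed in all 4 libraries (bottom). Symbols are libraries with Wilson's 95% intervals, which cover counting error only, and black bars are group means of 2 libraries. Both FGR symbols of Pycard lie below both controls in the top panel, while in the bottom panel one lies below and the other above both controls.

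Among the sensors, the Nlrp3 window read 66.4% and 65.7% in the controls and 54.6% and 63.1% in FGR. The difference of the means was -7.26 points, with a 95% interval of the test from -14.7 to 2.95 and an adjusted p of 0.869. The groups did not overlap, but the 2 FGR libraries stood 8.52 points apart, more than the distance between the group means. Within the gene itself the libraries read 67.1%, 68.6%, 64.7% and 66.3%, and in the 5 kb after it 80.1%, 78.4%, 68.5% and 65.9%, in the order control 1, control 2, FGR 1, FGR 2. Both FGR libraries were below both controls in both stretches. The mean difference was -2.35 points within the gene and -12.1 points after it, where the start of Olfr222 lies. In the 5 kb before the gene the libraries read 41.7%, 42.4%, 25.4% and 45.5%, with FGR 2 above both controls. The 5 kb before and after were not tested on their own, and no share over all genes is given here to set beside them. Both FGR libraries were also below both controls in the 5 kb outside the low end of Gsdmd and in the gene span of Il18. On gene spans with no flank no member was called, and 10847 of 30591 spans had groups without overlap. On shared CpGs the gene span of Nlrp3 read 66.7%, 77.9%, 61.3% and 75.5% with overlapping groups, and the 5 kb after it held no shared CpG. The Nlrc4 window read 84.7% and 85.8% in the controls and 83.0% and 86.5% in FGR, a difference of -0.47 points (-5.34 to 5.47).

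The adaptor Pycard had the largest difference of the 10 windows. It read 76.6% and 73.1% in the controls and 58.4% and 64.4% in FGR, with group means of 74.9% ± 2.45 and 61.4% ± 4.25 (SD, n = 2 each). Both FGR libraries were below both controls. The difference was -13.5 points (-24.3 to -2.71), with an adjusted p of 0.750 in the quasi-binomial test, so it was not called. The libraries had listed different CpGs of this window. In the start region, from 1500 bp before to 500 bp after the start, the controls listed 6 and 5 CpGs with 32 and 37 reads, and FGR listed 16 and 14 CpGs with 97 and 101 reads. These reads made up 9.73% and 11.6% of the window's reads in the controls and 30.6% and 31.6% in FGR. The start region ends 500 bp after the start, so it holds part of the 1000 bp in which no read was methylated. Without the start region the window read 77.1% and 78.1% in the controls and 80.9% and 77.2% in FGR, a difference of 1.44 points in the other direction. On the CpGs listed in both groups the summed reads gave 74.5% in control and 72.6% in FGR.

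**Figure D3:**
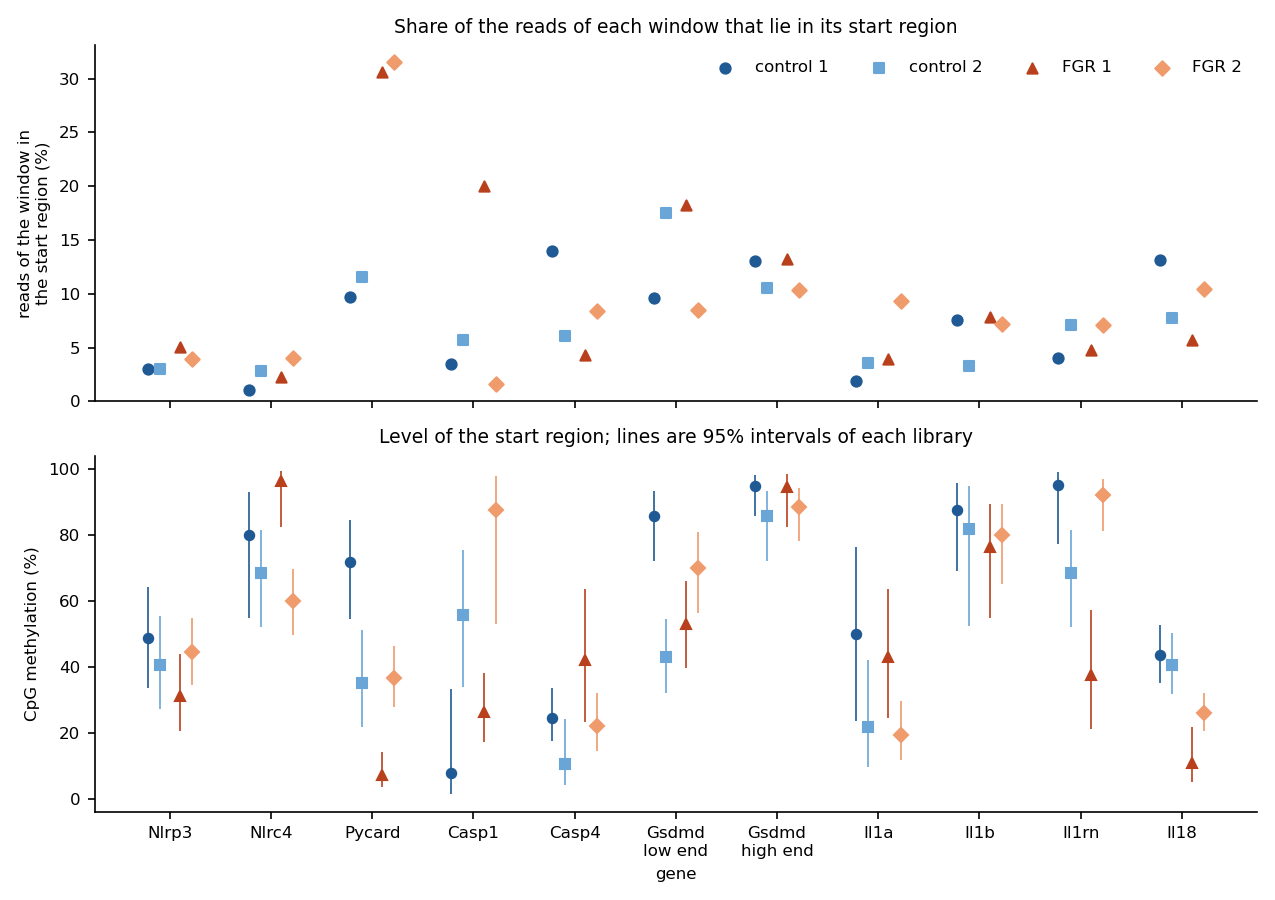
Share of the reads of each window that lie in its start region (top, y axis in %) and methylation level of that region (bottom, y axis in %), by library, with both ends shown for Gsdmd. Lines are Wilson's 95% intervals of single libraries. For Pycard the share is 9.73% and 11.6% in the controls and 30.6% and 31.6% in FGR.

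The caspase windows did not separate the groups. Casp1 read 62.0% and 67.1% in the controls and 65.2% and 67.0% in FGR, a difference of 1.59 points (-8.29 to 12.3). Casp4 read 74.5% and 80.4% against 80.3% and 79.0%, a difference of 2.21 points (-5.99 to 10.5). The Gsdmd window read 87.0% and 76.2% in the controls and 82.8% and 82.3% in FGR, a difference of 0.98 points (-10.01 to 11.3), and the 2 controls stood 10.8 points apart with both FGR libraries between them.

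Among the cytokine windows, Il1a read 62.2% and 45.1% in the controls and 63.1% and 53.1% in FGR, a difference of 4.48 points (-12.2 to 20.7). Control 2, the lowest of the 4, had 186 of its 648 reads in the unmethylated bin of Ckap2l and Gm14023. Il1b read 77.7% and 78.7% against 88.8% and 75.8%, a difference of 4.12 points (-10.7 to 14.4), with FGR 1 above and FGR 2 below both controls. Il18 read 77.5% and 78.4% in the controls and 71.1% and 76.4% in FGR, a difference of -4.15 points (-10.3 to 3.79), and its groups did not overlap. Without its start region the Il18 window read 82.6% and 81.6% in the controls and 74.8% and 82.3% in FGR, with overlapping groups. On its 27 shared CpGs it read 79.5% and 85.1% against 79.7% and 81.4%, and the groups overlapped there too. The window of the antagonist Il1rn read 71.5% and 74.8% against 66.6% and 79.4%, a difference of -0.17 points (-11.7 to 13.6), and the FGR libraries stood on both sides of the controls.

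On the 140 distinct CpGs listed in all 4 libraries the same windows held 3 to 27 CpGs each, the fewest in Gsdmd and the most in Il18. Again no member was called, beside 0% of 30034 windows, with 1 member under an unadjusted p of 0.05, beside 5.62% of all, and limma called 0 with 1 under 0.05. The member was Nlrc4. On its 17 shared CpGs the controls read 86.4% of 147 reads and 89.2% of 130 reads, and FGR read 77.4% of 93 reads and 77.4% of 190 reads. The groups did not overlap, and the difference was -10.4 points (-17.2 to -3.50), with an adjusted p of 0.778 in the quasi-binomial test. Of these 17 CpGs, 13 had a lower mean in FGR, 2 a higher one and 2 the same. These are the same reads and libraries as those of the window, so the count is no separate support. Over every listed CpG the same window had differed by -0.47 points.

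Pycard differed by 1.20 points (-8.44 to 9.83) on its 8 shared CpGs, with 83.2% and 85.9% in the controls and 81.7% and 89.8% in FGR. None of these 8 CpGs lies in its start region. Nlrp3 read 55.3% and 62.9% against 47.1% and 58.2% on 21 shared CpGs, a difference of -6.42 points (-15.0 to 2.74), and its groups overlapped here. Of the 21 CpGs, 11 had a higher mean in FGR and 4 a lower one. Il1b read 87.9% and 96.9% against 97.1% and 98.1% on 5 CpGs, a difference of 5.19 points (-2.59 to 13.3), with both FGR libraries above both controls. It and Nlrc4 were the 2 windows of 10 without overlap, beside 33.3% of all windows. The other 6 windows differed by between -2.23 points (Casp1) and 2.80 points (Gsdmd). Over the 140 CpGs, 67 had a lower mean in FGR, 52 a higher one and 21 the same, and the median difference was 0 points. No share over all shared CpGs is given here to set beside these counts of CpGs. By window, the mean was lower in FGR in 6 of 10, beside 53.6% of all windows. At 48 of the 140 every library was over 80%, and at 8 every library was under 20%, of which 6 were in Nlrp3.

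**Figure D4:**
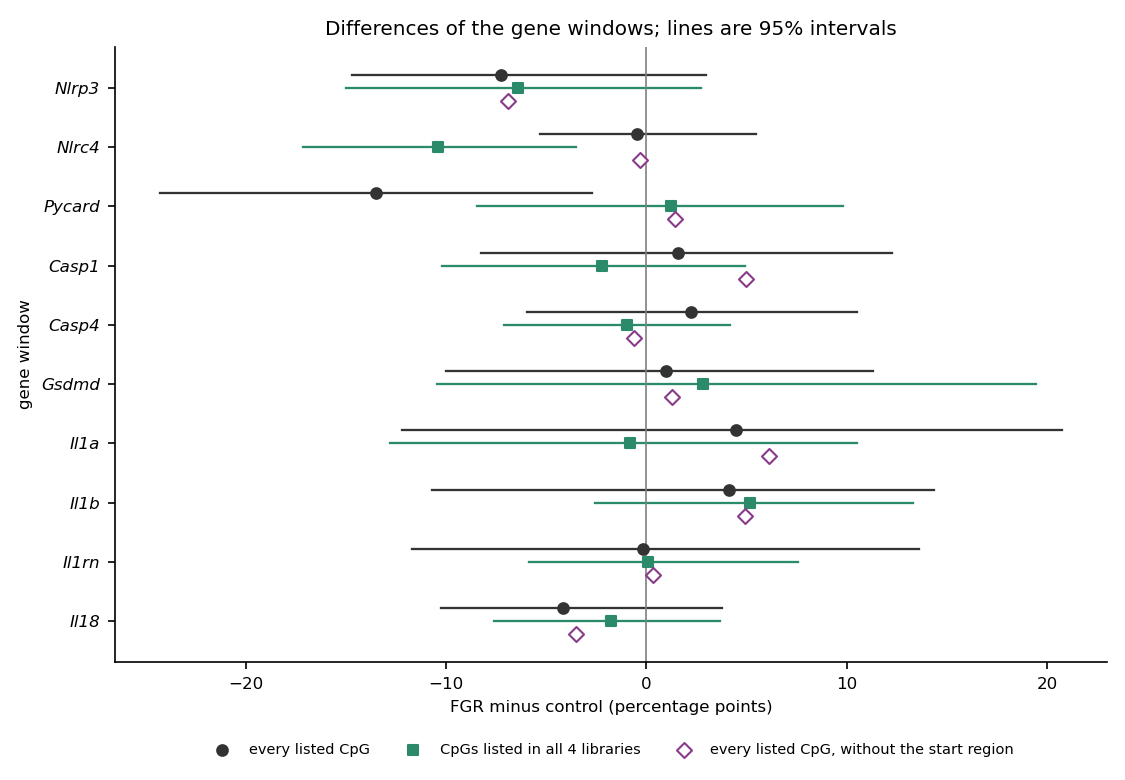
Difference of FGR minus control (x axis, percentage points) for each gene window (y axis), on every listed CpG, on the CpGs listed in all 4 libraries, and on every listed CpG without the start region. Lines are 95% intervals from the quasi-binomial model; the values without the start region have no interval. Pycard moves from -13.5 to 1.44 points without its start region, and Nlrc4 from -0.47 to -10.4 points on the shared CpGs.

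The start regions of 7 members could be tested, 8 regions in all since both ends of Gsdmd were tested. The start regions of Casp1, Il1a and Il1b were not tested, because at least 1 library held fewer than 3 CpGs there. In the order control 1, control 2, FGR 1, FGR 2, Casp1 read 7.69%, 55.6%, 26.2% and 87.5%, Il1a 50%, 21.7%, 42.9% and 19.2%, and Il1b 87.5%, 81.8%, 76.2% and 80%. Il1b, with 11 to 40 reads a library, was thus mostly methylated over its start region in every library. In the 300-bp start sequence itself FGR 2 alone listed CpGs, so the other libraries give no level there. None of the 8 was called and none had an unadjusted p under 0.05, beside 0% of 28449 regions called and 5.99% under 0.05, and limma gave 0 and 0. The groups did not overlap in 1 of the 8, beside 33.6% of all, the start of Il18. The mean was lower in FGR in 5 of the 8, beside 54.1% of all. At the start of Il18 the controls read 43.7% of 119 reads and 40.6% of 106 reads, and FGR read 10.9% of 55 reads and 25.9% of 224 reads. The difference was -23.7 points (-39.7 to 1.17) with an adjusted p of 0.838 in the quasi-binomial test. In the order control 1, control 2, FGR 1, FGR 2, the libraries listed 16, 14, 8 and 21 of the 23 CpGs listed at this start. Only 1 CpG was listed in all 4, and it read 80%, 80%, 100% and 57.1% of 5 to 7 reads, with overlapping groups. This start region of Il18 also holds the start of Bco2, 438 bp from that of Il18. The start of Pycard read 71.9% and 35.1% in the controls and 7.22% and 36.6% in FGR, a difference of -31.6 points (-76.5 to 16.6) with overlapping groups. The start of Nlrp3 read 48.6% and 40.5% against 31.0% and 44.3%, a difference of -6.89 points (-29.9 to 19.4). That of Casp4 read 24.5% and 10.5% against 42.1% and 21.95%, a difference of 14.5 points (-18.1 to 27.9). The start of Il1rn ranged from 37.5% in FGR 1 to 95.2% in control 1, and that of Nlrc4 from 60% in FGR 2 to 96.4% in FGR 1, so both extremes of Nlrc4 were FGR libraries. Gsdmd differed by -2.82 points at its low end and by 1.33 points at its high end. Of these regions, that of Nlrp3 alone had 3 shared CpGs, and on them it differed by 0.62 points (-21.7 to 23.7) with overlapping groups. Of 5958 start regions tested on shared CpGs, 0% were called, 4.93% had an unadjusted p under 0.05, 30.9% had groups without overlap and 49.9% were lower in FGR.

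Among tiles of 1000 bp, 73 overlapped a member window and could be tested. None was called, beside 0.0213% of 550538 tiles (0.00745% called higher and 0.0138% called lower in FGR), and 5 had an unadjusted p under 0.05, beside 5.32% of all. By limma 0 were called and 3 were under 0.05. In 24 of the 73 the groups did not overlap, beside 33% of all tiles, and in 39 the mean was lower in FGR, beside 51.8% of all. The smallest p was in the Nlrp3 window, 29432 to 30431 bp after the Nlrp3 start, in a tile that overlaps the olfactory receptor gene Olfr222. It read 83.8% of 37 reads and 83.0% of 135 reads in the controls, and 56.0% of 50 reads and 12.9% of 31 reads in FGR. Both FGR libraries were lower and they stood 43.1 points apart. The difference was -48.9 points (-63.5 to -23.8), with an adjusted p of 0.202 in the quasi-binomial test. The libraries had listed 24 CpGs of this tile between them, 4 of these in both groups and none in all 4 libraries. On those 4 CpGs the summed reads gave 95% of 20 reads in control and 83.3% of 24 reads in FGR. Under some other settings this tile passed the threshold: its adjusted p was 0.000241 with the replicate number as a block, 0.00753 without FGR replicate 1, where the FGR group is FGR 2 alone and is assumed to vary like the controls and the other regions, and between 0.000803 and 0.537 over 5 other ways of moderating the spread, of which 3 called it.

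The next tile held the start of Il18, from -699 to 300 bp of it. It read 50.9% of 53 reads and 65.4% of 26 reads in the controls, and 18.8% of 32 reads and 31.2% of 80 reads in FGR. The difference was -33.2 points (-47.1 to -8.96) with an adjusted p of 0.669. On the 8 CpGs listed in both groups the summed reads gave 55.7% in control and 39.2% in FGR. The other tiles with an unadjusted p under 0.05 were neighbouring tiles inside Nlrc4 and a tile in Gsdmd. The Nlrc4 tile 28108 to 29107 bp after the start read 52.5% and 37.9% against 11.48% and 52.4%, a difference of -13.3 points with overlapping groups. The Nlrc4 tile 27108 to 28107 bp after the start read 64.6% and 11.1% against 87.5% and 64.7%, a difference of 38.3 points in the other direction, with FGR 2 only just above control 1. This second Nlrc4 tile had an adjusted p of 0.938, and of 0.0194 with the replicate block, and its difference was 11.52 points without control replicate 2 and 65.0 points without control replicate 1. The Gsdmd tile 1857 to 2856 bp from the low end read 89.3% and 51.9% against 94.4% and 85.4%, a difference of 19.3 points with overlapping groups. This Gsdmd difference was 0.58 points without control replicate 2 and 38.0 points without control replicate 1.

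On shared CpGs 17 member tiles were tested, and none was called or under an unadjusted p of 0.05, beside 0% and 5.02% of 145706 tiles, with limma giving 0 and 0. The smallest p was 0.0556, in the Nlrc4 tile 11108 to 12107 bp after the start, where 3 CpGs read 88.2% and 88.2% in the controls and 80% and 70.8% in FGR. An Il1rn tile 5141 to 6140 bp after the first start read 76.5% and 96.6% against 65% and 78.1%. A Casp4 tile 6152 to 7151 bp after the start read 80.5% and 90.9% against 79.3% and 71.9%, with both FGR libraries below both controls. Of the 2 Il1b tiles among the 5 with the smallest p, one differed by 6.70 points and the other by 2.27 points, upwards in FGR in both. The groups did not overlap in 3 of the 17 tiles, beside 31.6% of all, and the mean was lower in FGR in 9, beside 51.1% of all.

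Only 3 single CpGs of the members had 10 reads or more in every library, and none was called, beside 0% of 19589, or under an unadjusted p of 0.05, beside 2.89%, with limma giving 0 and 0. A CpG 30062 bp after the Casp4 start, position 5338911, read 100%, 100%, 100% and 83.3% of 10 to 12 reads, in the order control 1, control 2, FGR 1, FGR 2. A CpG 4560 bp after the Casp1 start, position 5303077, read 45.5%, 40%, 25% and 47.1%. A CpG at -4792 bp from the first Il1rn start, position 24332068, read 80%, 71.4%, 66.7% and 80%. In all 3 the groups overlapped and the mean was lower in FGR, beside 27.9% of all without overlap and 49.2% lower.

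Single CpGs fell into classes that differ between the members. In the Il1a window 36.1% and 31.6% of listed CpGs in the controls, and 42.1% and 35.2% in FGR, had a level over 80%. In the Nlrc4 window the same shares were 68.2%, 74.6%, 62.2% and 71.8%. CpGs under 20% made up 14.0% and 20.5% of the Pycard CpGs in the controls and 37.8% and 25% in FGR. In Il1b they made up 12.5%, 12.2%, 0% and 16.4%, so that FGR 1, the library with the highest Il1b level, listed no CpG under 20% among its 45.

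Of 44 other genes of the same pathway, 43 were found and their windows could be tested. None was called on every listed CpG, beside 0% of all windows, and 2 were under an unadjusted p of 0.05, beside 6.44% of all. The mean was lower in FGR in 25 and higher in 18, beside 62.9% of all windows that were lower. The median difference was -0.20 points, beside -1.11 points over all windows. The smallest p belonged to Sigirr, a receptor of the interleukin 1 receptor family that dampens interleukin 1 signalling, with 52.4% and 63.8% in the controls and 68.9% and 75.6% in FGR. Tlr4, the endotoxin receptor, read 82.4% and 77.5% against 66.0% and 70.8%, and Il1rl1, the interleukin 33 receptor, read 86.4% and 86.8% against 84.2% and 82.6%. The lowest adjusted p of the 43, from the quasi-binomial test, was 0.750. The list was assembled with earlier results known, and the genes named are those with the smallest p. On shared CpGs none of the 43 was called, beside 0% of all windows, and 7 had an unadjusted p under 0.05, beside 5.62% of all. Of the 43, 27 were higher and 16 lower in FGR, beside 53.6% of all windows that were lower. The smallest belonged to Nlrp6 (77.1% and 52.5% against 78.1% and 89.7%, on 6 CpGs), Naip2, the sensor partner of Nlrc4 (76.6% and 76.2% against 81.5% and 85.8%), and the kinase Irak4 (90.1% and 88.7% against 94.3% and 94.7%). Of 30 start regions of the list none was called, beside 0% of all start regions. There was 1 with an unadjusted p under 0.05, beside 5.99% of all, that of Nek7, a kinase that binds NLRP3. Its start read 59.7% and 59.1% in the controls and 16.0% and 23.9% in FGR, a difference of -39.4 points with an adjusted p of 0.741. The next were Panx1, a membrane channel, with 29.7% and 15.6% against 46.8% and 41.4%, and Nlrp6 with 62.7% and 73.3% against 79.6% and 84.4%.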

How the data were processed

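Each deposited table lists CpG cytosines per strand of 1 library. The deposited coverage is a count of reads and the deposited methylation values are percent of reads, per the file headers. Per the submitters' processing notes, Trim Galore 0.6.5, Bismark and methylKit 1.28.0 were used, with mm10; no Bismark version and no parameters are given in the sources used here. Coverage times percent gave whole methylated reads within 0.02 reads for 100% of values.

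Strands were summed per CpG and the 0.1% of CpGs with the highest coverage left out in each library. Genes and starts came from RefSeq (GRCm38.p6). Regions where each library held 3 CpGs and 10 reads or more were tested between 2 control and 2 FGR libraries with a quasi-binomial model (group only, R 4.3.3), its overdispersion moderated with squeezeVar of limma 3.58.1 on a coverage trend and kept at 1 or above. Regions without variance did not inform the prior. This last choice was made after seeing the data: 6 ways of moderation were compared on simulated reads, with the calls each gave on the real tiles also in view, and these ranged from 1 to 2035. The other 5 are carried as alternatives. The 95% intervals are of the difference between the groups' summed reads, so they are not centred on the difference of the means. Reads are counted at each CpG, so Wilson's intervals cover counting error only and can be too narrow.

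The members, gene lists and tests were chosen with earlier results of these data known. Tiles named are the 5 with the smallest p on all and on shared CpGs; of the pathway list, the 3 with the smallest p. Alternatives were limma, a replicate block, leaving out each library, other coverage, CpG and flank limits, and means of CpG levels.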

Additional observations from a re-analysis of the deposited data

How the results depend on the processing

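None of the 7 comparisons called a member, and this held under every alternative that gave a value, except for tiles on all CpGs. There 2 member tiles were called with the replicate block (2034 tiles in all), and 1, the Nlrp3 tile at Olfr222, with degrees of freedom per group (629 in all), with 1 read added to each count (1854) and with a robust prior (2035). Leaving out libraries gave 0 to 1 member tiles, the 1 without FGR replicate 1. Calls over all tiles were 117 in the main test, 0 with limma, 1 with the prior from all regions, 482 with the prior from regions variable in both groups, 3 at CpGs with at least 10 reads and 12 with at least 5 CpGs. Leaving out 1 library gave between 493 and 753. The same replicate numbers did not deviate together: the correlation of the within-group gaps was between -0.0014 and 0.021 over 6 sets of regions. This cannot show whether libraries with the same number share an origin or a preparation, which the labels do not say. The block is therefore given as an alternative fit only.

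Of the values of the named differences under the alternatives, 157 of 178 kept their direction for windows on all CpGs. On shared CpGs 146 of 166 did so, and for starts 101 of 109. These counts include limma, the replicate block and the 5 other ways of moderation, which leave the difference itself unchanged and could not turn it. Under every alternative the direction held for 2 of 10 windows on all CpGs, 2 of 10 on shared CpGs and 4 of 8 starts. With CpGs of at least 10 reads Il1a turned to -9.38 and Il1rn to 10.2 points. With a flank of 2 kb Nlrc4 turned to 0.12, Il1a to -1.66 and Il1b to -0.99, and on shared CpGs Il1rn to -3.07 and Il18 to 0.63. With no flank Nlrc4 turned to 0.65, Casp1 to -3.86 and Il1a to -5.43, and on shared CpGs Il1a to 2.25, Il1rn to -3.94 and Il18 to 0.88. Without the start region Pycard turned to 1.44, Casp4 to -0.62 and Il1rn to 0.34. With means of CpG levels on shared CpGs Nlrp3 turned to 1.18, Casp1 to 1.0, Il1a to 0.087, Il1rn to -5.27 and Il18 to 1.84, and the high end of Gsdmd to -0.71 on all CpGs.

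Leaving out each library in turn turned the sign of these differences, given as the lowest and highest value in points. On all CpGs Nlrc4 ranged from -2.20 to 1.26, Casp1 from -0.97 to 4.15, Casp4 from -0.74 to 5.17, Gsdmd from -4.42 to 6.38, Il1a from -4.08 to 13.0, Il1b from -2.36 to 10.6 and Il1rn from -6.55 to 6.22. On shared CpGs Pycard ranged from -2.85 to 5.25, Casp1 from -5.55 to 1.09, Casp4 from -4.03 to 2.12, Gsdmd from -2.91 to 8.52, Il1a from -3.53 to 1.84, Il1rn from -3.53 to 3.68 and Il18 from -4.54 to 0.99. Among starts Nlrc4 ranged from -14.3 to 22.1, the high end of Gsdmd from -3.18 to 5.85, its low end from -24.2 to 18.6 and Il1rn from -44.4 to 10.1. The Nlrc4 tile 28108 bp after the start ranged from -33.7 to 7.19, the Il1b tile 5139 bp after the start from -2.0 to 15.4, the Casp1 CpG from -17.7 to 4.33 and the Il1rn CpG from -9.05 to 4.29. The sign held for the window of Pycard (-16.5 to -10.5) and for Nlrc4 on shared CpGs (-11.8 to -9.0). The sign also held, with a change of over 1.5 times, for the windows of Nlrp3 (-11.5 to -3.0) and Il18 (-6.78 to -1.51). The same was true on shared CpGs of Il1b (0.69 to 9.69) and Nlrp3 (-11.97 to -0.87). Among starts it was true of Nlrp3 (-13.5 to -0.24), Pycard (-49.9 to -13.2) and Casp4 (4.42 to 24.6). Among tiles it was true of the Nlrp3 tile at Olfr222 (-70.5 to -27.4), the Gsdmd tile (0.58 to 38.0) and the second Nlrc4 tile (11.52 to 65.0). Among shared tiles it was true of Nlrc4 (-17.4 to -8.24), Il1rn (-25.0 to -4.91) and Casp4 (-15.3 to -4.90). Without a library 1 group is a single library, whose spread is taken from the other group and the other regions. The cause of these changes was not tested, beyond the CpGs or libraries that each setting removes. The dispersion settings and the window without its start region were chosen after seeing the data. At 10 reads per CpG no member could be tested in shared windows, starts or tiles. With at least 5 CpGs no shared start region of a member, and with at least 15 reads no single CpG, could be tested. The intervals of the tested starts are wide, the narrowest being that of the high end of Gsdmd, from -14.7 to 14.5 points.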
